A study of Homo sapiens with 5 samples.

Results

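The genes described here are 10 transcription factor genes of the skeletal muscle lineage: the paired box genes PAX3 and PAX7, the forkhead gene FOXO1, the myogenic bHLH genes MYF5, MYF6, MYOD1 and MYOG, and the MEF2 genes MEF2A, MEF2C and MEF2D. They were chosen by name and function, with earlier results of these data known, and are 10 of the 43714 gene rows in the count tables. All libraries came from Rh41, an established human cell line labelled as alveolar rhabdomyosarcoma (ARMS) of the fusion-positive class (FP-RMS), a muscle-lineage tumour of soft tissue driven by a PAX-FOXO1 fusion protein. Cells carrying that fusion received either a scrambled siRNA (2 libraries, replicates 1 and 3) or an siRNA specific for H3F3A (3 libraries, replicates 1, 2 and 3), in each case with Lipofectamine RNAiMAX and for 48 hours. H3F3A is 1 of the pair of genes that encode the histone variant H3.3, and the comparison asks how these lineage factors stood when its transcript was depleted. All data come from this single cell line, and the labels do not say whether replicates were separate cultures, so that p-values reflect the spread among the sequenced libraries alone, and this spread may be technical.

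In muscle development, PAX3 and PAX7 mark the progenitor cells, MYF5 and MYOD1 commit cells to the muscle lineage, and MYOG and MYF6 act later, when myoblasts differentiate. The myogenic bHLH proteins bind E-box sequences as dimers with E proteins, and the MEF2 proteins cooperate with them at the regulatory sequences of muscle genes. In fusion-positive rhabdomyosarcoma, the DNA-binding part of PAX3 is joined to the activating part of FOXO1, and the tumour cells express MYOD1 and MYOG without completing differentiation. Reads of a PAX3-FOXO1 transcript are counted under PAX3 and FOXO1 according to where they map, and reads of the fusion cannot be told from reads of either intact gene in these tables. In bulk RNA, fewer cells that express a gene and less RNA per cell cannot be told apart.

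The libraries held 28493573 to 30705963 counts assigned to genes. H3F3A, the targeted gene, had 294 and 269 CPM (the read count scaled to a common library size) in scrambled libraries and 9.38, 10.5 and 8.54 CPM under H3F3A siRNA, while H3F3B, its partner for the same protein, averaged 821 CPM against 819 CPM. Scrambled replicate 1 stood apart in its relation to base composition. The deviation of its log2 CPM from the all-library mean increased by 0.15 for each 10 percentage points of transcript GC content. This slope was -0.00693 in scrambled replicate 3 and -0.0618, -0.0401 and -0.0413 in H3F3A siRNA replicates 1, 2 and 3. Both scrambled libraries thus had higher slopes than all H3F3A siRNA libraries. Removing each library's GC trend, as done below, therefore also removes any difference between the groups that follows GC content. The muscle lineage marker DES, which encodes the intermediate filament desmin, had 661 to 928 CPM. Of 4 markers of fusion-positive tumours TFAP2B, NOS1 and OLIG2 passed the filter on low counts while CDH3 did not exceed 0.309 CPM. TFAP2B alone was called, as higher, by edgeR and DESeq2, and 2 of these markers were at an unadjusted p under 0.05. The 3 markers of fusion-negative tumours HMGA2, FBN2 and EGFR were expressed as well, at scrambled means of 202, 164 and 23.7 CPM, and none was called by edgeR or DESeq2 (1 at an unadjusted p under 0.05). Summed levels of epithelial markers (KRT18, CLDN4 and KRT8 the highest) were 8.72 to 11.2 CPM, of endothelial markers (VWF and PECAM1 the highest) 2.23 to 3.27 CPM, and of immune markers (CD68 the highest) 3.7 to 4.22 CPM, and 0 markers in these 3 lists were called by edgeR or DESeq2, with 0 at an unadjusted p under 0.05. The fibroblast markers summed to 1223 to 1343 CPM because of the collagen gene COL3A1, singled out after its values were seen, at 1133 to 1244 CPM, whereas DCN, LUM and THY1 did not exceed 0.436 CPM. The other fibroblast markers without COL3A1 summed to 98.9 and 89.9 CPM in scrambled libraries and 73.6, 78.2 and 71.2 CPM under H3F3A siRNA, and COL1A1 and PDGFRB fell 1.28-fold each (edgeR adjusted p = 0.041 and 0.0162). At an unadjusted p under 0.05 there were 3 fibroblast markers, with no share of all genes to compare. COL1A1 lost its call without any 1 library other than scrambled replicate 3, and PDGFRB without H3F3A siRNA replicate 1 or 3. With the GC trend removed neither was called (log2 fold change -0.19, adjusted p = 0.223, and -0.26, adjusted p = 0.0522). Over 16 alternatives the adjusted p ran from 0.000251 to 0.761 for COL1A1 and from 6.67e-05 to 0.159 for PDGFRB. Their part in the results below was not tested.

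No member was called as changed after H3F3A siRNA. Of the 10 members, 8 passed the filter on low counts and were tested, and 0 of them reached an adjusted p under 0.05 in edgeR's quasi-likelihood test over all 15859 genes, in which 3.2% of genes were called. At an unadjusted p under 0.05 there were 2 members, MYOD1 and FOXO1. The share of all genes tested at that level is not given here, so no such count in this text can be set against it. DESeq2's Wald test called 1 member, MYOD1 (adjusted p = 0.0316), beside 4.46% of the genes it gave an adjusted p. The libraries of the groups did not overlap in CPM for 3 of the 8 members, MYOD1, FOXO1 and MEF2C, beside 33.1% of all genes tested. The median log2 fold change of the 8 members was -0.01, and that of all genes tested was 0.01.

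**Figure D1:**
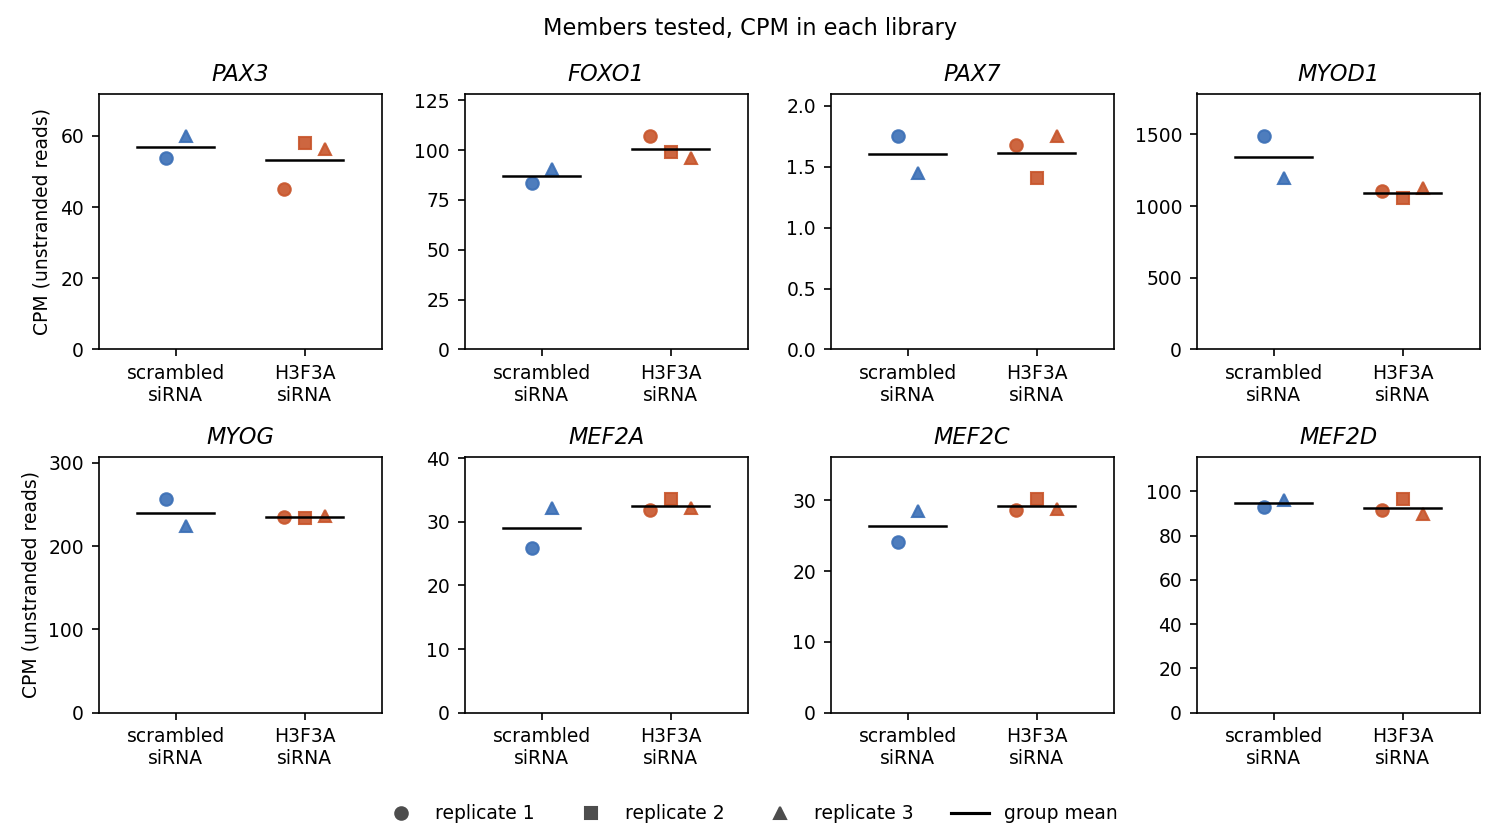
CPM, the scaled read count (vertical axes, each starting at 0) of the 8 members tested in each library, with scrambled siRNA in blue (n = 2), H3F3A siRNA in orange (n = 3), the replicate number as the symbol and the group mean as a line. MYOD1 is highest in scrambled replicate 1, at 1488 CPM, and FOXO1 is higher in all 3 H3F3A siRNA libraries than in either scrambled library.

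The levels of the members spanned several orders of magnitude when divided by transcript length, for which the median length of each gene's RefSeq-matched transcripts in GENCODE was used. MYOD1 was highest, at a mean of 662 CPM per kb over the 5 libraries, followed by MYOG at 155 CPM per kb, and these were above every other member in every library. PAX3, MEF2D and FOXO1 followed at 34.6, 20.4 and 16.6 CPM per kb. Their order depends on the transcript, because the ranges from the longest to the shortest transcript, 17.2 to 56.9 CPM per kb for PAX3 and 15.6 to 29.2 for MEF2D, overlap each other, and that of MEF2D also spans the value of FOXO1. By the median transcript MEF2A and MEF2C came next at 5.87 and 4.6 CPM per kb. The range of MEF2C, 3.71 to 23.7 CPM per kb, holds that of MEF2A, spans the value of FOXO1 and overlaps those of MEF2D and PAX3, so that its place depends on the transcript. PAX7 was at 0.711 CPM per kb. MYF5 and MYF6 were at the limit of detection. For PAX3 and FOXO1 the lengths are those of the intact transcripts, although fusion reads cover only a part of each gene. Their values per kb, and their places in the order, are uncertain for that reason too.

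**Figure D2:**
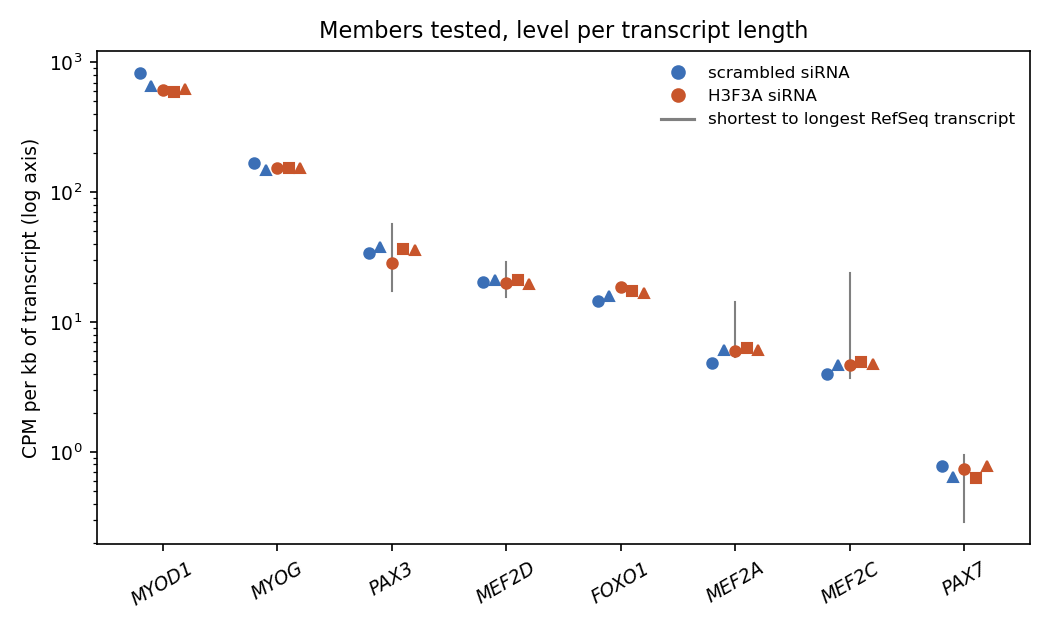
Level of each tested member as CPM per kb of its median RefSeq-matched transcript (log axis), 1 point per library, with the grey line from the value for the longest to that for the shortest transcript of the gene. MYOD1 and MYOG stand above all other members in all libraries, and PAX7 is the lowest of the 8.

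Among the paired box genes, PAX3 is the one joined to FOXO1 in the fusion and is the main PAX transcript here. PAX3 had 53.9 and 59.9 CPM in scrambled libraries and 45, 58 and 56.3 CPM under H3F3A siRNA. H3F3A siRNA replicate 1 was the lowest of all, and the groups overlapped. The log2 fold change was -0.10 (SE 0.0956, 95% interval -0.30 to 0.10, edgeR adjusted p = 0.642), and without H3F3A siRNA replicate 1 it was 0.008. PAX7, the paralogue that is fused in other tumours of this class, had 43 and 51 reads in scrambled libraries and 41 to 54 under H3F3A siRNA, or 1.41 to 1.75 CPM over all libraries. PAX7 reads amounted to 2.42 to 3.73 per 100 PAX3 reads, and the 95% interval of its log2 fold change, -0.46 to 0.49, was the widest of the members tested. Of 7 other PAX genes, PAX2, a regulator of kidney development, had 30.5 and 28 CPM against 27, 25.8 and 23.8 CPM, and PAX5, a B cell factor, averaged 3.89 and 3.51 CPM. Neither was called (edgeR adjusted p = 0.257 and 0.698; 1 at an unadjusted p under 0.05, 0 by DESeq2), and the other 5 did not exceed 0.356 CPM.

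FOXO1, a forkhead factor that insulin signalling keeps out of the nucleus and the 3' partner of the fusion, had 83.5 and 90.5 CPM in scrambled libraries and 107, 99 and 95.8 CPM under H3F3A siRNA. All 3 H3F3A siRNA libraries lay above both scrambled ones. The mean was 87 ± 4.98 CPM (SD, n = 2) against 101 ± 5.84 CPM (SD, n = 3), a log2 fold change of 0.21 (SE 0.0788, 95% interval 0.05 to 0.37) that was not called (edgeR adjusted p = 0.158). Its value was 0.15 without scrambled replicate 1 (adjusted p = 0.562) and 0.17 with each library's GC trend removed (adjusted p = 0.19). Over 16 alternatives its adjusted p ran from 0.00328 to 0.697. The related genes FOXO3, FOXO4 and FOXO6 had log2 fold changes of -0.04, 0.05 and -0.25, with 0 of 3 called by edgeR or DESeq2 and 0 at an unadjusted p under 0.05.

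The ratio of the 2 fusion partners does not depend on library size. There were 64.6 and 66.2 PAX3 reads per 100 FOXO1 reads in scrambled libraries and 42, 58.6 and 58.7 under H3F3A siRNA. Every H3F3A siRNA library was below both scrambled ones, with replicate 1 far below the other 2. The means were 65.4 ± 1.12 (SD, n = 2) and 53.1 ± 9.63 (SD, n = 3), a difference of -12.3 (two-sided exact permutation test p = 0.3; the smallest p that the 10 splits allow is 0.1). Without H3F3A siRNA replicate 1 the difference was -6.74. With the GC trend removed, the ratios were 58.4 and 66.8 against 44, 60.5 and 60.5, so that the groups overlapped. PAX3 transcripts have a median GC content of 56.2% and FOXO1 46.4%.

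**Figure D3:**
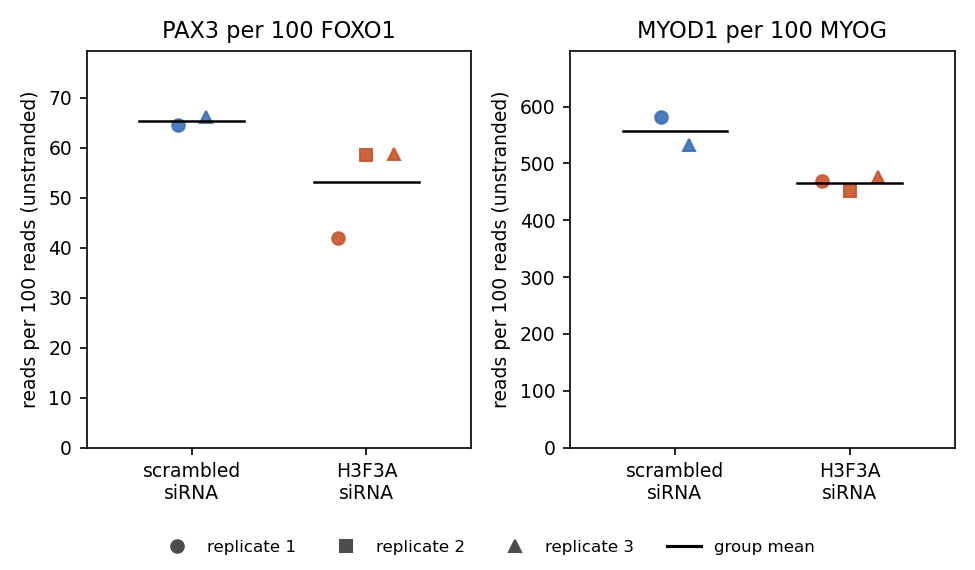
PAX3 reads per 100 FOXO1 reads (left) and MYOD1 reads per 100 MYOG reads (right) in each library, from unstranded counts, with the replicate number as the symbol and the group mean as a line. In both ratios the scrambled libraries lie above the H3F3A siRNA libraries, at 64.6 and 66.2 against 42 to 58.7 on the left and at 582 and 532 against 452 to 477 on the right.

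Of the myogenic bHLH genes, MYOD1 and MYOG carried nearly all reads and MYF5 and MYF6 almost none. MYF5, which with MYOD1 commits cells to the lineage, had 1 read in H3F3A siRNA replicate 2 and 0 in the other 4 libraries. MYF6, also called MRF4, which is most abundant in mature fibres, had 1 read in scrambled replicate 3, 1 in H3F3A siRNA replicate 1 and 0 elsewhere. A count of 0 allows up to 3 counts, or 0.0977 to 0.105 CPM in these libraries, and covers counting error only. No difference between groups was detectable for either gene at this depth.

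The sequences just upstream of MYOG, MYF5 and MYF6 are shown because these genes are related and the first is transcribed here while the others are not detected above the limit. They are the 250 bases before the transcript start in RefSeq, on build GRCh38.p14, which may differ from the build used for counting. MYOG lies on the minus strand (chr1:203086013-203086262), and MYF5 (chr12:80716662-80716911) and MYF6 (chr12:80707384-80707633) lie next to each other on the plus strand. Capitals mark E-boxes, CANNTG, and matches to a strict MEF2 pattern, YTAWWWWTAR, both searched on both strands. In this pattern Y is C or T, W is A or T and R is A or G.
MYOG: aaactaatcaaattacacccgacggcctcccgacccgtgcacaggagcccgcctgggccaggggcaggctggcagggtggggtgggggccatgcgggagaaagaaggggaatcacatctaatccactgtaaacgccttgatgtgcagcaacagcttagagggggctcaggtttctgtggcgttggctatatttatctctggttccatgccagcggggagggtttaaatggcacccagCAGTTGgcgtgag
MYF5: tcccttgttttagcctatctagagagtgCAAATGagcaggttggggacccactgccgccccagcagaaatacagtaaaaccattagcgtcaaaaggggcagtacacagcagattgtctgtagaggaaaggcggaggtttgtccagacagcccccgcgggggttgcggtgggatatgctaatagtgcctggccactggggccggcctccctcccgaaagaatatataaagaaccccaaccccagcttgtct
MYF6: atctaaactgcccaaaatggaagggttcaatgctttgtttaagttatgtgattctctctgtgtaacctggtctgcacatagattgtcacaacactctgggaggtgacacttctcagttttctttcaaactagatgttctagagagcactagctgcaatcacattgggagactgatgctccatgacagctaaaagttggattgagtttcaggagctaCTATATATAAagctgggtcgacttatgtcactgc
MYOG has 1 E-box, which starts 13 bases before the transcript start, and MYF5 has 1, which starts 222 bases before it. MYF6 has none in this window and 1 MEF2 match, which starts 34 bases before the transcript start. The stretch ctatatttat in the MYOG window differs from the MEF2 pattern at its last base only, so it is not marked. Of 35097 RefSeq promoter windows of this length, 61.8% hold an E-box and 2.8% a MEF2 match, so that an E-box match is the usual case. The GC content of the windows was 58% for MYOG, 54.4% for MYF5 and 41.6% for MYF6, against a median of 58% over all windows. These matches describe the sequence and do not show binding.

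MYOD1, the factor able to convert other cell types to muscle, was the most abundant member and had the smallest p. It had 1488 and 1193 CPM in scrambled libraries and 1102, 1057 and 1125 CPM under H3F3A siRNA. The groups did not overlap, but scrambled replicate 3 lay closer to the H3F3A siRNA libraries than to scrambled replicate 1. The mean was 1340 ± 208 CPM (SD, n = 2) against 1095 ± 34.4 CPM (SD, n = 3), a log2 fold change of -0.29 (SE 0.0864, 95% interval -0.47 to -0.11) that missed the threshold (edgeR adjusted p = 0.0654). This value depended on which scrambled library was kept. It was -0.13 without scrambled replicate 1 and -0.44 without scrambled replicate 3. With only 2 scrambled libraries, which of them is atypical for MYOD1 cannot be told. At 65.5% its transcript had the highest GC content of the members, and with the GC trend removed its log2 fold change was -0.06 (adjusted p = 0.713). Over 16 alternatives its adjusted p ran from 0.00031 to 0.928, and it was called in 3.

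MYOG, or myogenin, which drives myoblast fusion and terminal differentiation, had 256 and 224 CPM in scrambled libraries and 235, 234 and 236 CPM under H3F3A siRNA. The H3F3A siRNA libraries lay close together and between the scrambled ones. The log2 fold change was -0.03 (SE 0.0768), and its 95% interval of -0.19 to 0.13 leaves room for modest changes in either direction (edgeR adjusted p = 0.885). Relative to MYOG, MYOD1 had 582 and 532 reads per 100 MYOG reads in scrambled libraries and 469, 452 and 477 under H3F3A siRNA. With the GC trend removed these were 530 and 528 against 490, 460 and 493. With the stranded columns summed, which adds reads to MYOG as described below, they were 376 and 342 against 307, 292 and 308. The scrambled libraries remained the higher ones in both cases. This ratio was looked at after the values were seen and was not tested.

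The unstranded count of MYOG left out many reads that fall on an overlap with another gene. MYOG overlaps MYOPARR, a long noncoding RNA annotated across the MYOG start on the opposite strand, and reads in the overlap fall to neither gene when strand is ignored. The sum of the stranded columns was 11551 and 10359 reads for MYOG in scrambled libraries and 10699, 10496 and 11286 under H3F3A siRNA. Of that sum, 34.5% to 35.7% was missing from the unstranded column, which held 6660 to 7452 reads. MYOPARR gained nearly the same number, since the sum counts each overlap read once for either gene, from 63 to 77 unstranded to 3757 to 4162 in the stranded columns. The kit named in the labels does not mark strand, so that these overlap reads can come from either transcript, and the share was alike in both groups. With the stranded columns summed, MYOG had a log2 fold change of -0.03 (edgeR adjusted p = 0.886) and MYOPARR of -0.05 (adjusted p = 0.791).

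**Figure D4:**
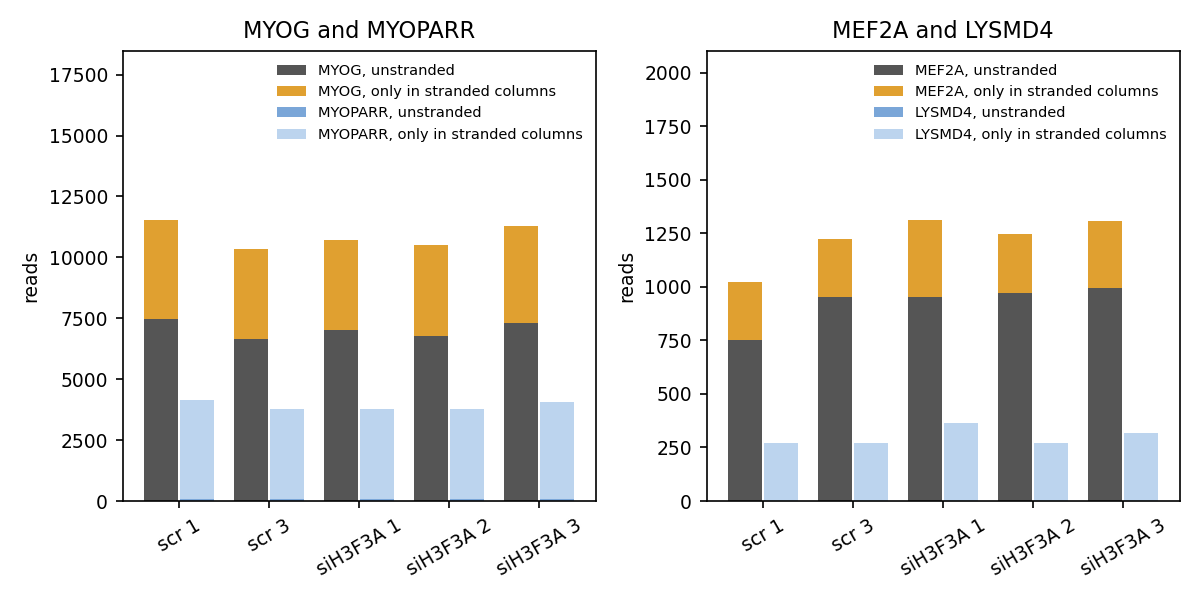
Reads counted for MYOG and its antisense neighbour MYOPARR (left) and for MEF2A and its neighbour LYSMD4 (right) in each library (scr, scrambled siRNA; siH3F3A, H3F3A siRNA), split into unstranded counts and reads that appear only when the stranded columns are summed. Of the summed stranded reads, 34.5% to 35.7% for MYOG and 21.8% to 27.6% for MEF2A appear only there. The same holds for nearly all LYSMD4 and most MYOPARR reads, and overlap reads are drawn for both genes of a pair.

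The MEF2 genes encode MADS-box factors whose activity is held down by class IIa histone deacetylases. MEF2D, the most abundant of them here, had 92.9 and 96.1 CPM in scrambled libraries and 91.4, 96.3 and 89.7 CPM under H3F3A siRNA. The groups overlapped throughout, with a log2 fold change of -0.03 (95% interval -0.19 to 0.12, edgeR adjusted p = 0.875). MEF2A had 25.8 and 32.1 CPM against 31.9, 33.5 and 32.1 CPM. Scrambled replicate 3 lay among the H3F3A siRNA libraries and scrambled replicate 1 below them. The log2 fold change was 0.17 (SE 0.093, adjusted p = 0.381), and the log2 fold change was 0.01 without scrambled replicate 1.

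MEF2C, which is required in developing muscle and heart, had 24.1 and 28.5 CPM in scrambled libraries and 28.6, 30.1 and 28.7 CPM under H3F3A siRNA. The highest scrambled and the lowest H3F3A siRNA library were nearly equal, again with scrambled replicate 1 as the low library. The log2 fold change was 0.15 (SE 0.0901, edgeR adjusted p = 0.437), and 0.03 without scrambled replicate 1. MEF2A and MEF2C have the lowest transcript GC contents of the members, 41% and 39%. Relative to each other they hardly moved, at 88.9 to 93.7 MEF2C reads per 100 MEF2A reads in all 5 libraries. With the GC trend removed, MEF2A stood at 33 to 34.7 reads per 100 MEF2D reads in every library, where the unstranded counts gave 27.7 in scrambled replicate 1 and 33.4 to 35.8 in the other 4. Of the summed stranded reads, 21.8% to 27.6% for MEF2A, which overlaps LYSMD4, were missing from the unstranded counts. For MEF2C, which has antisense overlaps, this share was 8.69% to 12.2%. Such reads can come from either gene. MEF2B was not detected above 0.0971 CPM.

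**Figure D5:**
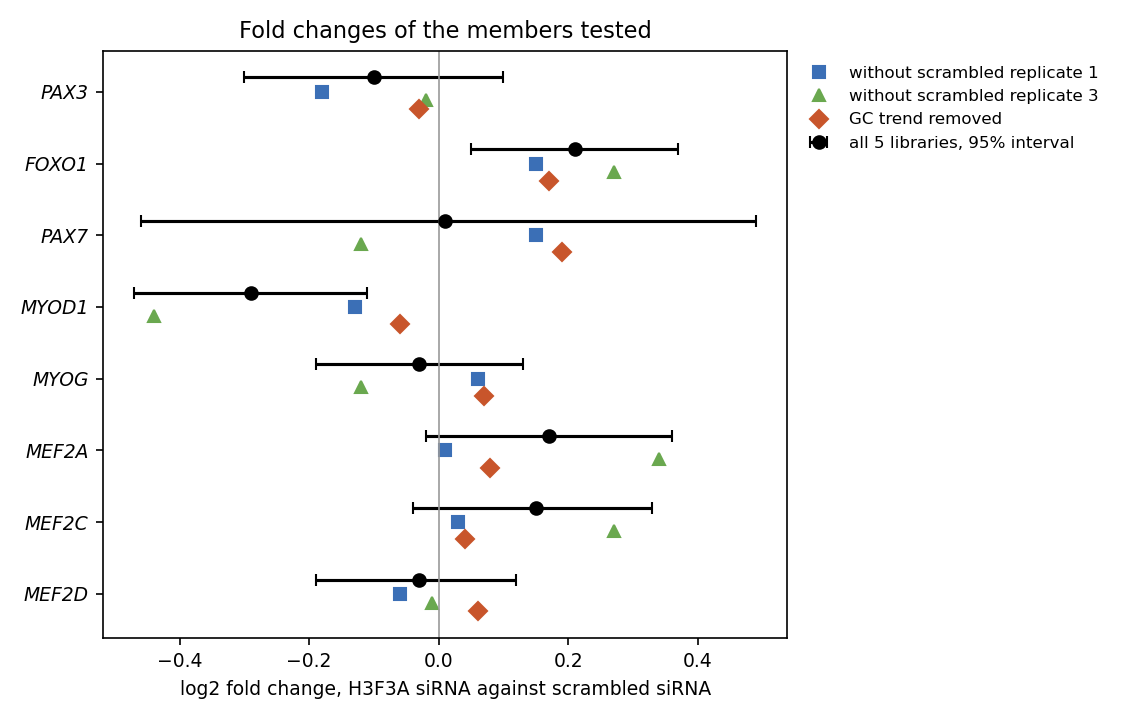
Log2 fold changes of the 8 members tested, H3F3A siRNA against scrambled siRNA, with 95% intervals from all 5 libraries (black), and the values without scrambled replicate 1 (blue), without scrambled replicate 3 (green) and with each library's GC trend removed (orange). For MYOD1, FOXO1, MEF2A and MEF2C the blue and orange points lie closer to 0 than the black ones, and the green points lie farther from 0.

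The number of members called moved most with the choice of scrambled library. With either scrambled library left out, the control arm is a single library that is assumed to vary like the H3F3A siRNA libraries, from which alone the spread is then estimated. In such a fit without scrambled replicate 3, 4 of 8 members were called, MYOD1 lower and FOXO1, MEF2A and MEF2C higher, beside 15.1% of all genes tested. Without scrambled replicate 1, and also with the GC trend removed (1.85% of all genes called), 0 of 8 were called by edgeR. With no filter on low counts MYOD1 alone was called, beside 2.8% of the rows tested. With both the GC trend removed and the replicate number as a block, FOXO1 alone was called, beside 8.2% of genes.

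Partners of these factors were read from the same fit, in which 2.69% of all genes were called lower and 0.504% higher. The lists of partners and targets were chosen with earlier results of these data known. Their counts, here and below, are therefore not independent of these data and only describe the lists. Of the 3 E proteins, the dimer partners of the myogenic bHLH factors, 1 fell and 0 rose. Their median log2 fold change was 0.14, and 2 were at an unadjusted p under 0.05, with no share of all genes to compare. TCF3, which encodes E12 and E47, had 438 and 367 CPM against 317, 337 and 320 CPM. All H3F3A siRNA libraries were below both scrambled ones, a 1.24-fold fall (edgeR adjusted p = 0.0391) that was lost without scrambled replicate 1 (adjusted p = 0.403) and with the GC trend removed (adjusted p = 0.196; range over 16 alternatives 0.000237 to 0.697). Upper-quartile scaling (0.0507), a fit that is not robust (0.0508) and leaving out any 1 H3F3A siRNA library also ended the call (adjusted p = 0.23, 0.101 and 0.127 without replicates 1, 2 and 3). TCF4, named after its values were seen, had 44.6 and 54.5 CPM against 59.9, 62.2 and 61.3 CPM, a log2 fold change of 0.30 that was not called by edgeR (adjusted p = 0.0549) and was called by DESeq2 (adjusted p = 0.0493). Over 16 alternatives the adjusted p of TCF4 ran from 3.31e-05 to 0.615, and it was called in 6. Of 15 inhibitors of the myogenic bHLH factors 12 were tested and 0 called by edgeR or DESeq2, with 1 at an unadjusted p under 0.05. The most abundant were MDFI, which masks the nuclear localisation of the bHLH factors, at means of 423 and 380 CPM, the bHLH repressor MSC at 136 and 124 CPM, and ID1, which sequesters E proteins, at 75.2 and 69.5 CPM.

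The class IIa histone deacetylases HDAC7, HDAC5 and HDAC4 had log2 fold changes of -0.22, -0.06 and -0.09, and 0 of 4 genes were called by edgeR or DESeq2, with 1 at an unadjusted p under 0.05. Of 12 coactivators 1 fell and 0 rose (median log2 fold change -0.07, 6 at an unadjusted p under 0.05, with no share of all genes to compare). SRF, the MADS-box factor of actin and muscle genes, had 100 and 100 CPM against 75.6, 79.6 and 82.8 CPM. It fell 1.27-fold (edgeR adjusted p = 0.0147) and was called without scrambled replicate 1 as well (adjusted p = 0.0262), but not with the GC trend removed (log2 fold change -0.19, adjusted p = 0.16; range over 16 alternatives 0.00185 to 0.16). The call was also lost without H3F3A siRNA replicate 1 (adjusted p = 0.16) or 2 (adjusted p = 0.0809).

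Of 22 targets of the myogenic bHLH and MEF2 factors 3 fell and 0 rose. The median log2 fold change of the 22 was -0.12. At an unadjusted p under 0.05 there were 10, a count that cannot be read as an excess without the share of all genes. MYL4, the embryonic myosin light chain, had 36.9 and 31.7 CPM against 28.5, 23.6 and 23.3 CPM, a 1.36-fold fall (edgeR adjusted p = 0.0135). CHRND, a subunit of the muscle acetylcholine receptor, averaged 221 CPM against 182 CPM, a fall of 1.21-fold (adjusted p = 0.0477), and NR4A1, an orphan nuclear receptor induced through MEF2, averaged 12.6 CPM against 9.56 CPM, a fall of 1.32-fold (adjusted p = 0.0428). None of these 3 was called without scrambled replicate 1 (adjusted p = 0.205 for MYL4, 0.352 for CHRND and 0.295 for NR4A1), and MYL4 alone was called with the GC trend removed (adjusted p = 0.0361). Leaving out H3F3A siRNA replicate 1 or 2 also ended all 3 calls (adjusted p = 0.0722 to 0.244), and leaving out replicate 3 ended those of CHRND (0.143) and NR4A1 (0.118). DESeq2 called MYL4 (0.00675) and CHRND (0.0171) and did not call NR4A1 (0.0637). Upper-quartile scaling and a fit that is not robust ended the calls of CHRND (0.0674 and 0.0591) and NR4A1 (0.0595 and 0.0509). Over 16 alternatives the adjusted p ran from 6.87e-05 to 0.342 for MYL4, 0.000622 to 0.558 for CHRND and 0.0135 to 0.464 for NR4A1. DES had 928 and 742 CPM against 693, 671 and 661 CPM, a log2 fold change of -0.31 that missed the threshold in edgeR (adjusted p = 0.0501) and passed it in DESeq2 (adjusted p = 0.021). Its log2 fold change was -0.14 without scrambled replicate 1 and -0.12 with the GC trend removed. Over 16 alternatives the adjusted p of DES ran from 0.000159 to 0.858, and it was called in 5.

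Of 19 genes known as PAX3-FOXO1 targets 16 were tested, and 1 fell and 2 rose. The median log2 fold change was 0.03, and 6 were at an unadjusted p under 0.05, again without the share of all genes beside it. FGFR4, a growth factor receptor, had 2184 and 1783 CPM against 1390, 1398 and 1428 CPM, a 1.41-fold fall (edgeR adjusted p = 0.00257). TFAP2B, a transcription factor used as a diagnostic marker of the fusion-positive class, had 57.1 and 56.4 CPM against 79.5, 81.5 and 78.4 CPM, a 1.41-fold rise (adjusted p = 0.00133). ABAT, the enzyme that breaks down the transmitter GABA, had 189 and 205 CPM against 265, 274 and 279 CPM, a 1.38-fold rise (adjusted p = 0.002). All 3 were still called without scrambled replicate 1 (adjusted p = 0.0328, 0.00124 and 0.00897) and with the GC trend removed (0.00898, 0.000255 and 0.000297). For FGFR4, the main log2 value of -0.50 became -0.30 once the GC trend was removed, and -0.28 with scrambled replicate 1 also left out, where it was not called (adjusted p = 0.17). Without H3F3A siRNA replicate 1, a fit that called 15 genes in all, they missed the threshold (0.0838, 0.0541 and 0.0561). Over 16 alternatives the adjusted p ran from 8.18e-11 to 0.17 for FGFR4, 2.05e-16 to 0.0541 for TFAP2B and 9.28e-25 to 0.0561 for ABAT. Reads of the fusion cannot be told from reads of intact PAX3 or FOXO1, and any relation of these targets to the level of the fusion was not tested.

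By the root mean square difference of log2 CPM, centred on each gene's mean over the 5 libraries, the genes most like MYOD1 among 9716 compared were NOL3, MLST8 and SHARPIN, at 0.0129, 0.0176 and 0.0179, where the median gene was at 0.186. None of the 3 was called (edgeR adjusted p = 0.0859, 0.0758 and 0.108). Their transcripts have GC contents of 62.6%, 64.3% and 66.9%, near the 65.5% of MYOD1, but the GC content of all genes compared is not given here. Each was highest in scrambled replicate 1, which follows from the choice by likeness to MYOD1.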

How the data were processed

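Poly-A RNA of 5 Rh41 libraries was counted per gene. The deposited values are raw read counts in STAR's gene table layout, with 1 unstranded and 2 stranded columns. The submitters' processing notes name STAR 2.5, HTSeq 0.6.1, DESeq2 and hg19 without roles, and the counting annotation is not given in the sources used here. The summary lines (25% to 26.3% of reads) name no gene and were left out.

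The unstranded column entered edgeR 4.0.16 (R 4.3.3; filterByExpr with a minimum count of 10 and a minimum total of 15, TMM, robust quasi-likelihood fit over all 5 libraries without covariates, Benjamini-Hochberg over 15859 genes, called at an adjusted p under 0.05). DESeq2 1.42.0 was an alternative. CPM is the count scaled by the TMM-adjusted library size. The GC alternative adds an offset from a natural spline with 5 degrees of freedom of each library's log2 deviation on transcript GC content, which 90.7% of tested genes have. Ratios with the GC trend removed use log2 CPM with a pseudocount of 0.5. Lengths and GC content are from GENCODE 29 and promoters and neighbours from RefSeq (GRCh38.p14), matched by symbol. 9 of the 10 members have a promoter in that table. On simulated data among 15633 genes, the share recovered was 39.4% at a 0.4 log2 change and 92% at a 1 log2 change. Every simulated gene had the same biological coefficient of variation, 6.53%, and no GC trend or deviating library was simulated. These shares therefore do not give the power in the real libraries.

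Members and lists were chosen with earlier results of these data known. Named beside the members are H3F3A, H3F3B, the called genes of each list or, where none was called, up to 3 with the highest mean CPM, and the 3 genes most like the member with the smallest p counting genes that average 8 CPM or more. H3F3A and H3F3B are the rows H3-3A and H3-3B. TCF4, DES and COL3A1 were added after their values were seen.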

Additional observations from a re-analysis of the deposited data

How the results depend on the processing

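Of 16 alternatives, 5 leave out a library and do nothing else. The number of members called was 0 to 4 without 1 library, 1 by DESeq2, 1 with no filter, 1 with the GC trend removed and the replicate block, and 0 otherwise. All genes called, 507 by default, numbered 15 to 2481 without 1 library (102 and 2481 without scrambled replicates 1 and 3, and 15, 177 and 308 without H3F3A siRNA replicates 1, 2 and 3), 792 with no filter, 294 with the GC trend removed, 68 when scrambled replicate 1 was also left out and 1300 with the GC trend removed and the replicate block; the cause was not tested. The replicate block alone called 574 genes and no member, and CHRND lost its call under it (adjusted p = 0.0877). Its numbers are shared by 2 pairs only, whose deviations correlated at 0.112 and 0.0487, and it leaves 1 residual degree of freedom.

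Small log2 fold changes turned in sign; of the turned values, that of HDAC5 with the GC trend removed and the replicate block was called (adjusted p = 0.0281). Leaving out 1 library gave -0.178 to 0.008 for PAX3, -0.116 to 0.153 for PAX7, -0.122 to 0.064 for MYOG, -0.036 to 0.026 for H3F3B, -0.114 to 0.029 for FOXO3, -0.044 to 0.154 for FOXO4, -0.304 to 0.007 for MDFI, -0.161 to 0.044 for HDAC5, -0.160 to 0.064 for FBN2, -0.367 to 0.023 for CLDN4 and -0.452 to 0.036 for KRT8. With the GC trend removed the values were 0.073 for MYOG, 0.064 for MEF2D, 0.066 for FOXO6, 0.068 for MDFI, 0.056 for MSC and 0.102 for HDAC5. When scrambled replicate 1 was also left out they were 0.093 for MYOG, -0.013 for MEF2A, -0.006 for MEF2C, 0.003 for H3F3B, 0.018 for PAX5, -0.017 for FOXO4, 0.088 for MDFI, 0.056 for MSC, 0.021 for ID1, 0.098 for HDAC5, 0.071 for CLDN4 and 0.082 for KRT8. With the replicate block and the GC trend removed they were 0.079 for MYOG, 0.038 for MEF2D, 0.101 for MDFI, 0.102 for MSC, 0.132 for HDAC5 and 0.042 for KRT8. H3F3B was at 0.019 with upper-quartile scaling, 0.003 with no filter, 0.021 with the replicate block and 0.009 with the stranded columns summed, and CD68 at -0.007 with the stranded columns summed. The summed stranded columns, and the GC correction of the PAX3 to FOXO1 ratio, were added after the data were seen. Depth limits PAX7, MYF5 and MYF6.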

Other observations

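Other transcripts lie within 500 bases of a member. CCDC140, a noncoding gene at the start of PAX3, had 140 and 139 scrambled reads against 134, 157 and 196 under H3F3A siRNA, and was not called (log2 fold change 0.19, edgeR adjusted p = 0.556). LOC105369867, beside MYF6, had 45 to 67 reads per library although MYF6 itself had at most 1. MEF2C-AS2 had at most 1 unstranded read. When the stranded columns were summed it had 53 and 94 reads in scrambled replicates 1 and 3, against 97, 95 and 95 after H3F3A siRNA. Scrambled replicate 1 alone was low, and MEF2C-AS2 was not called (log2 fold change 0.37, edgeR adjusted p = 0.384). Nearly all MEF2C-AS2 reads thus lie where it overlaps MEF2C, and the libraries cannot tell the strands apart.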
